A study of Mus musculus with 34 samples.

Results

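The genes described here sense DNA damage, relay the checkpoint signal or repair the lesion. They were taken by symbol from the table of RNA-seq values of mouse limb buds, and all 9 members, *Atm*, *Atr*, *Chek1*, *Chek2*, *Brca1*, *Xpc*, *Ddb2*, *Rrm2b* and *Polk*, were found among its 22040 protein-coding genes. RNA was sequenced from limb buds of E11.5 embryos, with 3 biological replicates of the wild type (WT) and 3 of the conditional knockout, or CKO, whose genotype is *Prrx1-Cre* with *Hnrnpk* fl/fl. The labels give the genotypes as Hnrnpk WT and Hnrnpk CKO, and no treatment. In CKO embryos the Cre recombinase, which the *Prrx1* enhancer drives in limb bud mesenchyme, removes exons 4 to 7 of *Hnrnpk*, an RNA- and DNA-binding protein. Cells outside the mesenchyme, such as blood, vessel and ectoderm cells, are not targeted by this Cre. Embryos of both sexes were used, and neither the study's methods nor the labels say whether fore- and hindlimbs or embryos were pooled for RNA-seq.

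ATM and ATR are the kinases that open the DNA damage response. ATM is switched on by double-strand breaks and passes the signal to CHEK2, while ATR is switched on by single-stranded DNA at stalled replication forks and passes it to CHEK1. Both branches reach p53, which in turn raises transcription of arrest, death and repair genes. BRCA1 acts in repair by homologous recombination. XPC and DDB2 recognise bulky lesions in nucleotide excision repair, RRM2B is the small subunit of ribonucleotide reductase that supplies deoxynucleotides outside S phase, and POLK is a Y-family polymerase that copies past damaged bases. The last 4 genes are known as p53-responsive. Human *DDB2* is a classical p53 target, whereas the mouse gene has been reported to lack this response.

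The values are FPKM, fragments on a gene scaled to exon length and library size. Reads on the listed genes, recovered from the FPKM, numbered 17140869 to 24624434 per library. The targeted gene *Hnrnpk* stood at 193, 195 and 185 FPKM in the WT libraries and at 127, 142 and 135 in the CKO libraries, each in the order of replicates 1 to 3, as in all such series here. It was lower in every CKO library, by a log2 fold change of -0.50 (SE 0.13, adjusted *p* = 0.334 by limma without and 0.0575 with the replicate block, and 0.0237 in voom with the block). Reads from exons outside the deleted part, and from cells that this Cre does not target, count toward these values. Their shares cannot be told apart here. The paper reports efficient loss of Hnrnpk in E11.5 CKO limb buds from western blots and qPCR. All 7 limb mesenchyme markers were expressed, *Prrx1* and *Twist1* among them, and *Tbx5* alone passed the adjusted threshold in the model with the replicate block (log2 fold change -0.93, adjusted *p* = 0.00734 by limma). No gene of the erythroid, muscle, ectoderm, endothelial, macrophage, neural and proliferation lists passed it by limma over all 6 libraries without or with the block. In voom with the block, the erythroid markers *Hba-a2* and *Hbb-bt* and the mesenchyme marker *Lmx1b* passed as well. In replicates 2 and 3 alone, limma called 4 erythroid markers and 1 gene each of the muscle, ectoderm and proliferation lists higher, and 2 limb mesenchyme markers lower. All 9 erythroid, 4 muscle and 4 macrophage markers had a log2 fold change above 0 (medians 0.43, 0.56 and 0.28) and all 4 endothelial markers one below 0 (median -0.31). Of the 7 limb mesenchyme markers, 2 were higher and 5 lower in CKO (median -0.16). Of the 9 proliferation genes, 8 were higher and 1 lower (median 0.18). Summed FPKM of the 9 erythroid markers ran from 37788 to 63997 in WT and from 30833 to 142935 in CKO libraries, and that of the 4 endothelial markers from 16.2 to 24.4 and from 11.7 to 18.9. No marker was listed at 0, and the part of these cell types in the results was not tested.

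To ask which of the 9 genes differed between CKO and WT limb buds, log2(FPKM + 0.1) was compared by limma over the 12305 genes whose FPKM averaged 0.5 or more, and *p* values were adjusted over all of them by the Benjamini-Hochberg method. All 9 genes passed this filter. None had an adjusted *p* value under 0.05 by limma, against 0.065% of all genes tested, and none by limma voom on reads recovered from the FPKM, against 0.0813%. Unadjusted *p* values under 0.05 were found for 2 of 9, *Polk* (higher in CKO) and *Atr* (lower), against 8.31% of all genes tested, and for 3 of 9 by voom, which added *Rrm2b* (lower), against 8.48%. These models left the replicate number out. As an alternative, the libraries were treated as paired by replicate number, though the sources do not say what a number stands for. With the number as a block, *Polk* was the 1 gene of the 9 past the adjusted threshold, against 2.81% of all genes. At an unadjusted *p* value under 0.05 were 4 of 9, against 18.4%. In voom with the block, 2 of 9 passed the adjusted threshold (*Polk* and *Atr*), against 5.11%, and 4 of 9 the unadjusted one, against 20.9%. Without overlap between the groups were 2 of 9 genes, against 14.5% of all genes, and 4 of 9 differed in 1 direction within all 3 numbers, against 39.5%. Of the 9, 5 had a log2 fold change above 0, against 50.9%. The median log2 fold change of the 9 genes, which lay on both sides of 0, was 0.0029 and that of all tested genes 0.0048. The median absolute log2 fold change was 0.26 for the 9 genes and 0.14 for all tested genes, a difference that was not tested. For 122 other genes of repair, checkpoint and deoxynucleotide lists, described below, it was 0.14. None of the 9 genes differed by more than 1 on the log2 scale, a size that 0.845% of all genes exceeded. By contrast, *Cdkn1a*, the cell cycle inhibitor used as a reference p53 target, had an FPKM of 5.54 ± 1.08 (WT) and 25.4 ± 3.51 (CKO, SD, n = 3 each), a difference of 2.19 on the log2 scale (SE 0.18, adjusted *p* = 0.0101 by limma). This call was lost when WT replicate 3 (adjusted *p* = 0.117 by limma), CKO replicate 2 (0.0782) or CKO replicate 3 (0.117) was left out, while the log2 fold change lay between 2.04 and 2.32 over all 6 such models. *Mdm2*, the p53 inhibitor and another of its targets, had 14.3 ± 2.75 and 15.5 ± 2.79, or 0.11 on the log2 scale (SE 0.18, adjusted *p* = 0.908 by limma). In bulk samples, fewer cells of a type and less RNA per cell cannot be told apart.

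**Figure D1:**
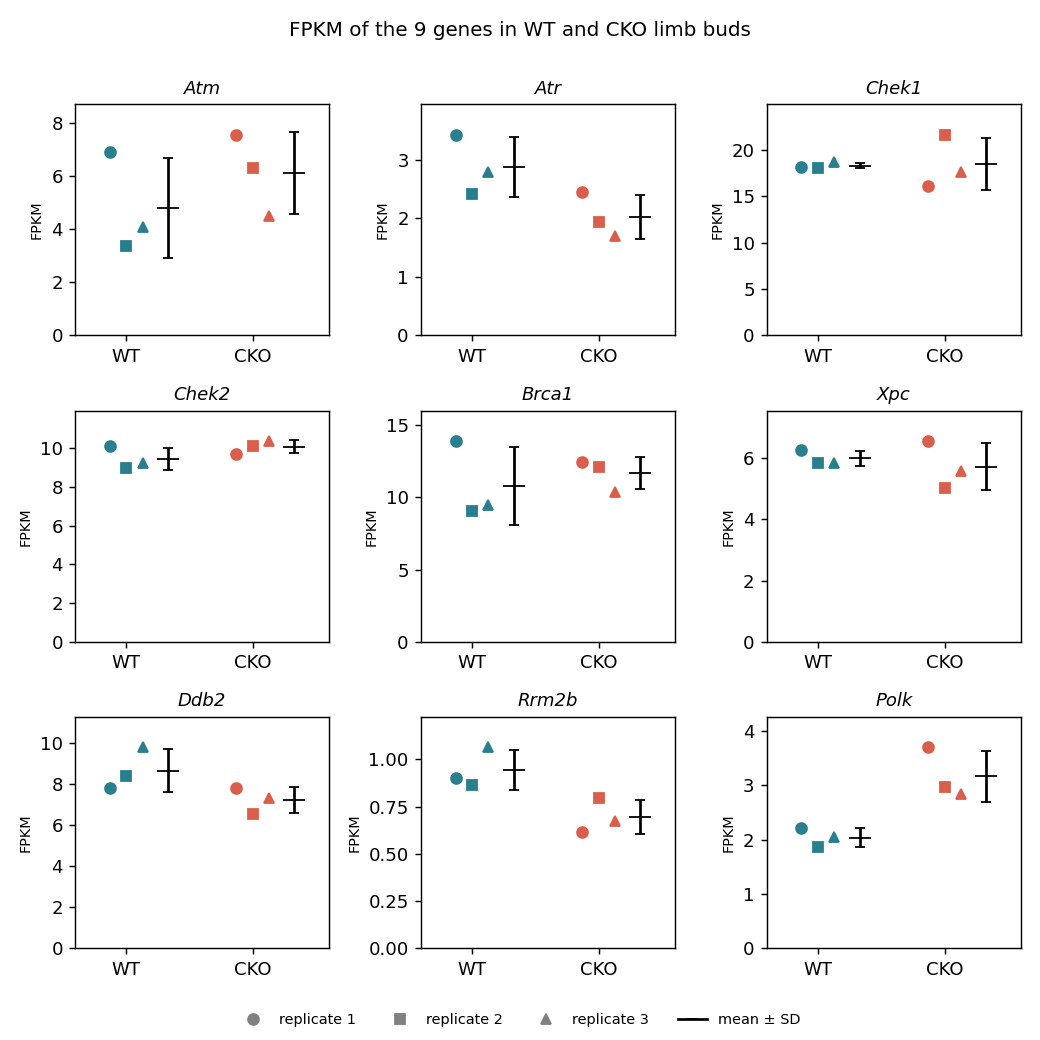
FPKM (y axis) of each of the 9 genes in the 3 WT and 3 CKO libraries, with the replicate number as the symbol and mean ± SD beside the points. The CKO values of *Polk* all lie above the WT values and those of *Rrm2b* all below, while the groups overlap for the other 7 genes.

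**Figure D2:**
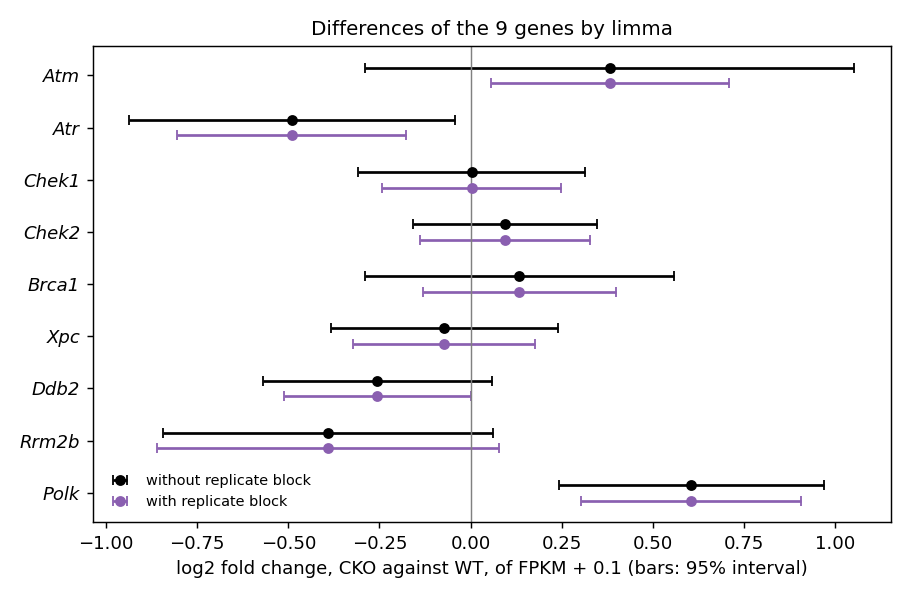
Log2 fold change of CKO against WT (x axis, from FPKM + 0.1) of each gene, with bars for the 95% interval from limma, in black without and in purple with the replicate block. The intervals of *Polk* and *Atr* lie on one side of 0 in either model, those of *Atm* and *Ddb2* only with the block.

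For the kinase genes at the head of the pathway, *Atm* was at a higher and *Atr* at a lower mean in CKO, neither past the adjusted threshold of limma over all 6 libraries with or without the block. *Atm* (ENSMUSG00000034218, at 53439149 to 53536740 on chromosome 9, GRCm38) had an FPKM of 6.92, 3.37 and 4.08 in WT and of 7.56, 6.30 and 4.498 in CKO. The groups overlapped, since WT replicate 1 lay above 2 of the CKO libraries, yet within each replicate number the CKO library was higher. Between the means on the log2 scale the difference was 0.38 (SE 0.29, adjusted *p* = 0.804 by limma without and 0.200 with the block, 0.0883 in voom with the block and 0.0197 in replicates 2 and 3 alone). The last of these *p* values takes most of its error from other genes, as only replicates 2 and 3 entered. By number the log2 differences were 0.13, 0.88 and 0.14, largest between the libraries numbered 2. Leaving out 1 library gave 0.17 (without WT replicate 2) to 0.67 (without WT replicate 1).

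*Atr* (ENSMUSG00000032409, chromosome 9 from 95857597 to 95951781) was at 3.43, 2.42 and 2.80 FPKM in WT and at 2.44, 1.94 and 1.70 in CKO. Within the numbers the log2 differences were -0.47, -0.31 and -0.69, all toward less in CKO, and the groups overlapped only between CKO replicate 1 and WT replicate 2. Its log2 fold change came to -0.49 (SE 0.19, unadjusted *p* = 0.0354 and adjusted *p* = 0.561 by limma without and 0.0927 with the block). *Atr* passed the adjusted threshold in voom with the block (adjusted *p* = 0.0132) and by limma in replicates 2 and 3 alone (0.0375). The *Atr* exons share 1366 bases with other annotated transcripts, 2 of them antisense. Their merged length of 23629 bases, the largest of the 9 genes, lowers its FPKM relative to a shorter gene model.

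The ratio of *Atm* to *Atr* within a library does not depend on the scaling between libraries. On the log2 scale it was 1.01, 0.48 and 0.55 in WT and 1.63, 1.70 and 1.41 in CKO. Every CKO library had a higher ratio than every WT library. The mean was 0.68 ± 0.29 (WT) and 1.58 ± 0.15 (CKO, SD, n = 3 each), a difference of 0.90 (exact two-sided permutation test, *p* = 0.1, the smallest that 3 libraries against 3 allow, and 0.233 adjusted over the 7 pairs compared). It lay between 0.80 and 1.07 whichever library was left out. The ratio sets a gene at a higher mean in CKO against 1 at a lower mean, so it is not separate from their own differences. How often other gene pairs are without overlap was not tested, here or for the ratios below.

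*Chek1* and *Chek2*, the kinases that carry the signal onward, gave values close to each other in the 2 genotypes. *Chek1* (ENSMUSG00000032113, chromosome 9 from 36708482 to 36727065), the gene of the 9 with the highest FPKM, had 18.2, 18.1 and 18.7 in WT and 16.2, 21.7 and 17.7 in CKO. The WT libraries were close together (SD 0.311), whereas the CKO libraries spread to either side of them (SD 2.85). On the log2 scale the groups differed by 0.0029, with a 95% interval from -0.31 to 0.31 (adjusted *p* = 0.997 by limma), and its sign changed with the library left out. The CKO library with the highest *Chek1* value, replicate 2, also had the highest summed FPKM of 9 proliferation genes such as *Mki67* and *Top2a* (844, against 638 and 752 in CKO replicates 1 and 3 and 662 to 665 in WT), whose part in this value was not tested. *Chek2* (ENSMUSG00000029521, chromosome 5 from 110839979 to 110874145) had 10.1, 8.99 and 9.23 in WT and 9.72, 10.1 and 10.4 in CKO. Its log2 fold change was 0.095, with a 95% interval from -0.16 to 0.35 (adjusted *p* = 0.869 by limma). The within-library ratio of *Chek1* to *Chek2* differed by -0.093 on the log2 scale (exact two-sided permutation test, *p* = 0.5).

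*Brca1* (ENSMUSG00000017146, chromosome 11 from 101488764 to 101551955) had an FPKM of 13.9, 9.05 and 9.44 in WT and of 12.5, 12.1 and 10.4 in CKO. WT replicate 1 was the highest of all 6 libraries, and the groups overlapped. Its log2 fold change of 0.13 (SE 0.18, 95% interval from -0.29 to 0.56, adjusted *p* = 0.891 by limma) ran from 0.021 without WT replicate 2 to 0.33 without WT replicate 1. The ratio to *Bard1*, which encodes the protein that BRCA1 pairs with, was 0.996 ± 0.207 in WT and 1.16 ± 0.267 in CKO on the log2 scale (SD, n = 3 each; exact two-sided permutation test, *p* = 0.6). The difference of 0.16 was 0.0082 without CKO replicate 2 and 0.043 without WT replicate 3.

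*Xpc* and *Ddb2*, the lesion recognition genes of nucleotide excision repair, did not pass the adjusted threshold over all 6 libraries, with or without the block. *Xpc* (ENSMUSG00000030094, chromosome 6 from 91489305 to 91515888) had 6.28, 5.84 and 5.86 FPKM in WT and 6.57, 5.04 and 5.57 in CKO. The CKO libraries lay on both sides of the WT libraries. This amounted to -0.072 on the log2 scale, with a 95% interval from -0.38 to 0.24 (adjusted *p* = 0.922 by limma). *Ddb2* (ENSMUSG00000002109, chromosome 2 from 91211572 to 91236982) had 7.77, 8.37 and 9.77 in WT and 7.77, 6.51 and 7.33 in CKO. The libraries numbered 1 were level, at a log2 difference of 0.0016, and in the other numbers it was -0.36 and -0.41, lower in CKO. The means differed by -0.26 on the log2 scale (SE 0.13, adjusted *p* = 0.685 by limma without and 0.271 with the block), with a 95% interval from -0.57 to 0.058. Leaving out 1 library gave -0.16 (without WT replicate 3) to -0.33 (without WT replicate 1). In replicates 2 and 3 alone *Ddb2* was lower in CKO (log2 fold change -0.38, adjusted *p* = 0.0451 by limma). The *Ddb2* exons share 652 bases with *Acp2* on the opposite strand, and whether the counting used the strand, which also bears on *Atr* and *Rrm2b*, is not given in the sources used here. *Ddb1*, whose protein binds DDB2, had 208 ± 3.26 FPKM (WT) and 217 ± 13.04 (CKO, SD, n = 3 each). The log2 ratio of *Ddb2* to *Ddb1* was -4.60 ± 0.15 in WT and -4.91 ± 0.18 in CKO (exact two-sided permutation test, *p* = 0.2).

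*Rrm2b* (ENSMUSG00000022292, chromosome 15 from 37923952 to 37961318) had the lowest level of the 9 genes, with an FPKM of 0.899, 0.864 and 1.06 in WT and of 0.617, 0.795 and 0.675 in CKO. None of the CKO values reached the lowest WT value, as for 8.86% of all tested genes. Behind these values were 148 to 212 recovered reads per WT library and 102 to 147 per CKO library. *Rrm2b* differed by -0.39 on the log2 scale (SE 0.19, 95% interval from -0.84 to 0.060, adjusted *p* = 0.660 by limma without and 0.352 with the block). The *Rrm2b* exons share 734 bases with an antisense transcript. *Rrm2*, which encodes the small subunit used in S phase, had 116 ± 11.96 (WT) and 133 ± 6.497 (CKO, SD, n = 3 each), or 0.20 on the log2 scale (adjusted *p* = 0.768 by limma). The log2 ratio of *Rrm2b* to *Rrm2* was -7.18, -6.98 and -6.69 in WT and -7.74, -7.32 and -7.69 in CKO. The CKO ratios all lay under the lowest WT ratio, with means -0.64 apart (exact two-sided permutation test, *p* = 0.1, and 0.233 adjusted over the 7 pairs).

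*Polk* (ENSMUSG00000021668, chromosome 13 from 96480690 to 96542579) had 2.21, 1.86 and 2.05 FPKM in WT and 3.70, 2.96 and 2.83 in CKO. Every CKO library was higher than every WT library, as for 5.63% of all tested genes. Recovered reads numbered 221 to 248 per WT library and 315 to 375 per CKO library. The mean was 1.55 times as high in CKO, with a log2 fold change of 0.60 (SE 0.16, 95% interval from 0.24 to 0.97, unadjusted *p* = 0.00516 and adjusted *p* = 0.345 by limma). With the replicate block, *Polk* rose (adjusted *p* = 0.0393 by limma), with differences of 0.72, 0.65 and 0.45 between the libraries numbered 1, 2 and 3. Leaving out single libraries, without the block, gave log2 fold changes of 0.49 to 0.68 with adjusted *p* values of 0.167 to 0.999 by limma. The ratio of *Polk* to *Polh*, another Y-family polymerase gene, was -2.22 ± 0.18 in WT and -1.75 ± 0.34 in CKO on the log2 scale (SD, n = 3 each), without overlap (exact two-sided permutation test, *p* = 0.1, and 0.233 adjusted over the 7 pairs). Between the libraries numbered 2 this ratio differed by 0.038, and without CKO replicate 1 the difference between the means, 0.47, was 0.29.

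Promoter windows of RefSeq on GRCm38.p6, from 250 bases before to 50 after a start, were at hand for 6 of the 9 genes, with 2 starts for *Polk*. *Xpc*, *Ddb2* and *Rrm2b* have no entry. Since *Polk* was the 1 gene that passed in the limma block model, the 250 bases before each of its starts are shown, 5′ to 3′ on the minus strand, with the match to the p53 half-site in capitals. The upstream start lies at 96542579, the end of the gene in GENCODE, and its bases span chr13:96542580-96542829. The downstream start lies at 96519187, 23392 bases into the gene, and its bases span chr13:96519188-96519437.
Polk upstream start: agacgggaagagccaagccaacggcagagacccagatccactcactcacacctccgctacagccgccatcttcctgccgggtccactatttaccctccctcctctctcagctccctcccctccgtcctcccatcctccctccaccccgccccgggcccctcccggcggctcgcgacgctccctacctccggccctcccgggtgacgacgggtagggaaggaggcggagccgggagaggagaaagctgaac
Polk downstream start: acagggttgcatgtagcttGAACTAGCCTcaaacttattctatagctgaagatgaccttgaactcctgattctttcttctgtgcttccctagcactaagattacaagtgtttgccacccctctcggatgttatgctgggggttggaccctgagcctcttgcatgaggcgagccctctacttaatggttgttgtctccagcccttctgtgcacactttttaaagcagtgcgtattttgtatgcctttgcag

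The half-site match of the downstream window began at position -231 from that start. No GENCODE transcript of *Polk* begins there, where 3 transcripts have the first base of exon 2. The upstream window held no match to the half-site, and neither did the windows of *Atm*, *Atr*, *Chek1*, *Chek2* and *Brca1*. A half-site (RRRCWWGYYY, where R is A or G, W is A or T and Y is C or T) was found, on either strand, in 8.36% of all 32851 windows. Single half-sites were searched for, not pairs of them, and binding of p53 was not tested. An E2F motif (TTTCCCGC, TTTCGCGC, TTTGCCGC or TTTGGCGC, on either strand) was found in 2.26% of all windows and, among these genes, in that of *Chek2*. The CCAAT box, searched on both strands, was in 37.4% of all windows and in those of *Chek2*, *Atm* and *Brca1*. No 2 of these matches overlapped in a window of the 9 genes.

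**Figure D3:**
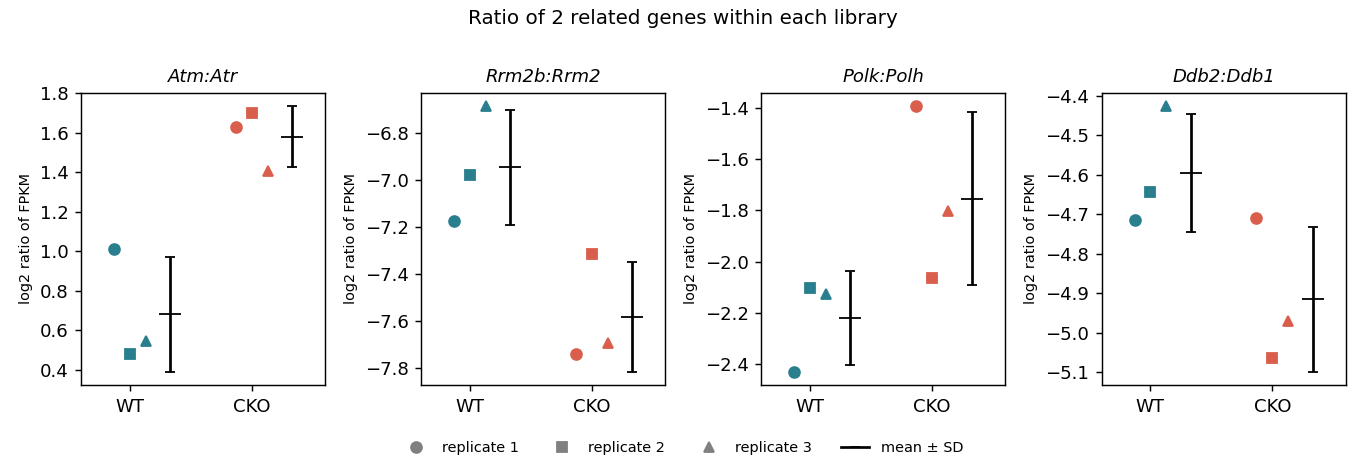
Log2 ratio of FPKM of 2 related genes within each library (y axis, which does not start at 0) for 4 of the 7 pairs, with the replicate number as the symbol and mean ± SD beside the points. The ratios of *Atm* to *Atr* and of *Polk* to *Polh* are higher in all CKO libraries, that of *Rrm2b* to *Rrm2* is lower in all, and that of *Ddb2* to *Ddb1* overlaps at replicate 1.

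The libraries numbered 1 stood apart from the others for several of these genes. In WT, 6 of the 9 genes were highest in replicate 1, among them *Atm*, *Atr* and *Brca1*. The share of all tested genes with that pattern was not counted. *Atm*, *Atr*, *Brca1* and *Rrm2b* are the members with at least 8000 exon bases. Of these, *Rrm2b* was not highest in replicate 1, with its highest FPKM in WT replicate 3 (1.06) and its lowest in CKO replicate 1 (0.617). *Chek2*, *Xpc* and *Polk*, also highest in WT replicate 1 among WT libraries, have 3001, 5494 and 5553 exon bases. Over all 2199 tested genes of that length, the median log2 difference from the WT mean was 0.12 in WT replicate 1 and 0.14 in CKO replicate 1, against -0.12, -0.0072, -0.091 and -0.097 in WT replicates 2 and 3 and CKO replicates 2 and 3. For genes under 2000 bases it was -0.19 and -0.24 in the libraries numbered 1. The part of this length difference in the spread of *Atm*, *Atr* and *Brca1* was not tested. In replicates 2 and 3 alone, 4 of the 9 genes had an adjusted *p* value by limma under 0.05, against 15% of all genes tested, and 5 of 9 had an unadjusted one, against 29%. *Atm* (log2 fold change 0.51, adjusted *p* = 0.0197) and *Polk* (0.55, 0.0167) were higher in CKO there, and *Atr* (-0.50, 0.0375) and *Ddb2* (-0.38, 0.0451) were lower. In the same libraries, 4 of the 9 erythroid markers passed, all higher in CKO, and 2 of the 7 limb mesenchyme markers, both lower, and their part in these calls was not tested. With so few libraries, limma drew most of the error in replicates 2 and 3 alone from other genes. No test can be made from the libraries numbered 1 alone.

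In WT the order of mean FPKM was *Chek1* (18.3), *Brca1* (10.8), *Chek2* (9.44), *Ddb2* (8.63), *Xpc* (5.99), *Atm* (4.79), *Atr* (2.88), *Polk* (2.04) and *Rrm2b* (0.943). The ranges over WT libraries overlapped between *Brca1*, *Chek2* and *Ddb2* in turn, between *Xpc* and *Atm*, and between *Atm* and *Atr*, and were apart at every other step. *Chek1* was above 78.3% of all tested genes and *Rrm2b* above 8.01%. In CKO, *Polk* (3.17) stood above *Atr* (2.02), with no overlap between the CKO libraries, whereas in WT *Atr* stood above *Polk*, also without overlap.

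The rest of the damage response was read from 8 lists of other genes. Of the 122 tested genes in them, 75 were higher in CKO and 47 lower, with a median of 0.048 on the log2 scale. *Cdkn1a* was the 1 gene past the adjusted threshold of limma. At an unadjusted *p* value under 0.05, 12 passed (9.84%, against 8.31% of all genes tested), 7 of them higher. With the replicate block, 4 passed the adjusted threshold (3.28%, against 2.81%). In voom with the block 6 did (4.92%, against 5.11%), and in replicates 2 and 3 alone 16 (13.1%, against 15%).

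Among 12 translesion synthesis genes, 1 rose with the block and none fell, with a median log2 difference of 0.074. This was *Poli*, a Y-family polymerase gene like *Polk*, which had 3.68, 2.996 and 3.003 FPKM in WT and 6.15, 4.46 and 4.53 in CKO. All CKO values were higher than all WT values, a difference of 0.62 on the log2 scale (SE 0.17, adjusted *p* = 0.366 by limma without and 0.0189 with the block). Among 18 nucleotide excision repair genes, 14 were higher in CKO, with a median of 0.16, and 1 rose with the block. This was *Ercc8*, a gene of the transcription-coupled branch, at 2.73 ± 0.255 (WT) and 4.29 ± 0.602 (CKO, SD, n = 3 each), or 0.63 on the log2 scale (adjusted *p* = 0.304 by limma without and 0.0395 with the block). In base excision and mismatch repair, with a median of -0.0055, 1 of 16 genes rose with the block. This was the DNA glycosylase gene *Neil1*, at 2.71 ± 0.419 and 4.33 ± 0.659, a log2 fold change of 0.66 (adjusted *p* = 0.341 by limma without and 0.0371 with the block).

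In limma over all 6 libraries, no gene of the remaining lists other than *Cdkn1a* passed the adjusted threshold with or without the block. In voom with the block, *Rad50* (adjusted *p* = 0.0373) and *Polm* (0.0492) passed as well, both lower in CKO. In replicates 2 and 3 alone limma called 2 sensors and mediators lower, *Rad50* and *H2afx*. It called 2 others of that list higher, *Mre11a* (log2 fold change 0.38, adjusted *p* = 0.0382) and *Nbn* (0.40, 0.0312). Of the end joining genes it called *Polm* lower and *Xrcc5* higher (0.40, 0.0383) there. The 21 tested genes of sensors and mediators had a median of 0.055. *Rad50*, of the complex that loads ATM at breaks, had -0.41, and *H2afx*, the histone variant that ATM phosphorylates, had -0.39 (unadjusted *p* = 0.0429 and 0.0327 by limma). The 28 genes of homologous recombination and the Fanconi pathway had a median of -0.019. By limma over all 6 libraries without the block, none had an unadjusted *p* value under 0.05. *Fancc* (-0.30) and *Fance* (-0.28) had the lowest *p* values in that fit. In replicates 2 and 3 alone, limma called *Blm* higher (log2 fold change 0.39, adjusted *p* = 0.0425) and *Xrcc3* lower (-0.40, 0.0406). The 9 end joining genes had a median of 0.056, with *Polm* at -0.62 and the ligase gene *Lig4* at 0.34. The 8 genes of deoxynucleotide supply had a median of 0.035, with *Rrm2* and *Dctd* (-0.17) at the lowest *p* values. The 10 checkpoint effector genes had a median of 0.13.

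**Figure D4:**
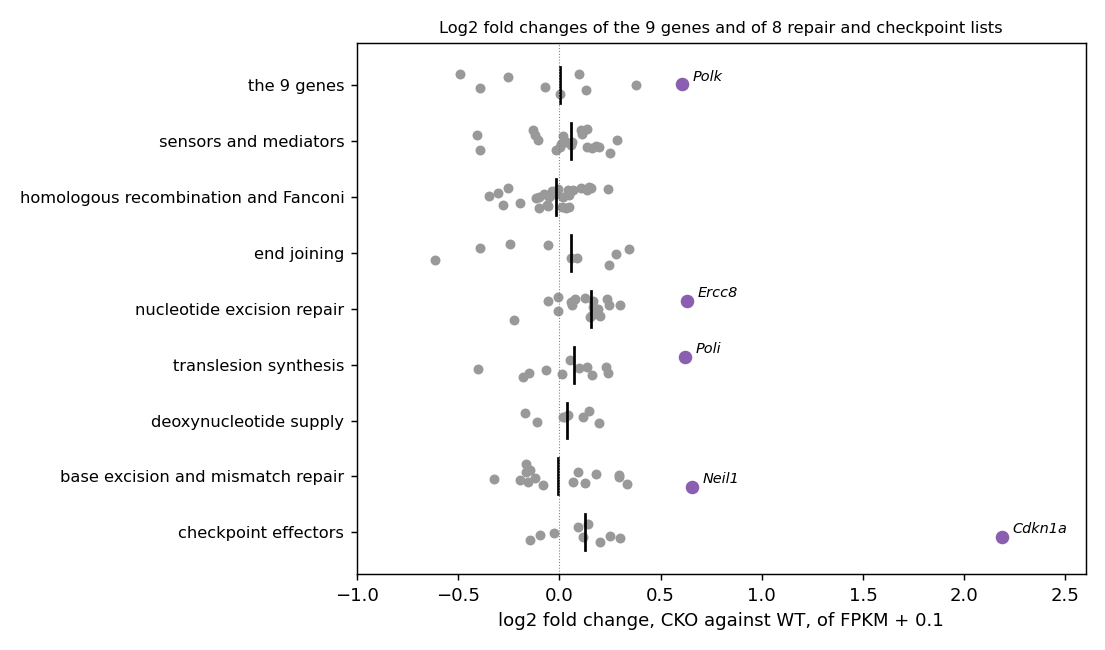
Log2 fold change of CKO against WT (x axis, from FPKM + 0.1) of the 9 genes and of each tested gene in the 8 lists, 1 point per gene, with the list's median as a vertical line. Purple points, labelled, have an adjusted *p* value by limma under 0.05 with the replicate block: *Polk*, *Ercc8*, *Poli*, *Neil1* and *Cdkn1a*, all above 0.

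Genes with a pattern like that of a member were sought by Pearson's *r* of log2(FPKM + 0.1) over the 6 libraries, which share depth and length differences, and are given as a description. For *Polk* the 2 nearest genes were *Mief1* (*r* = 0.995) and *Zfp326* (*r* = 0.993). For *Atm* they were *Dmxl1* and *Zfp292*, for *Atr* *Jak3* and *Nfatc2ip*, for *Brca1* *Cstf2* and *Larp4b*, and for *Rrm2b* *Inpp5k* and *Treml1*. For *Chek1* they were *1110032A03Rik* and *Cenpc1*, for *Chek2* *Utp18* and *Stat6*, for *Xpc* *Ccdc78* and *Hunk*, and for *Ddb2* *Epb41l1* and *St8sia2*. With 6 libraries such values are common, since between 72 (*Chek2*) and 814 (*Xpc*) tested genes had an *r* over 0.9 with a member. Between the members, *Atm* and *Brca1* were the most alike (*r* = 0.95 over 6 libraries).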

How the data were processed

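RNA-seq of 3 WT and 3 CKO limb bud libraries was analysed, and the chromatin samples of the series (Hi-C, CUT&RUN, ATAC-seq) were not analysed here. The authors deposited FPKM for protein-coding genes, 1 column per library. The submitters' processing notes name cutadapt 2.5, HISAT2 2.1.0 and featureCounts 1.6.3 for the series, and mm10, without roles. Gene positions and exon lengths came from GENCODE vM21 (GRCm38), which held 99.5% of the identifiers. FPKM times exon length gave whole reads in all 6 libraries, within 0.1 reads, for 92.6% of these genes, which gave the depth. The reads on listed genes were 0.947 to 1.11 times the library size by which the authors had divided.

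The comparison took genes whose FPKM averaged at least 0.5, and was made on log2(FPKM + 0.1), which understates the change of low genes, with limma 3.58.1 (mean-variance trend) in R 4.3.3. Exact permutation tests used SciPy 1.17.1. The 9 genes, the lists, the ratios and the alternatives were chosen with earlier results of these data known. Genes named from a list are those past the adjusted threshold without or with the replicate block, or otherwise the 2 with the lowest *p* value. The deviations of same-numbered libraries from their group means correlated at 0.64, 0.44 and 0.27 across genes, each over 0.1. In the models with the replicate block, the libraries were treated as paired by number. The main model, the fits with a library left out and the exact permutation tests quoted did not use the number. The sources do not say what a number stands for. Correlations between unlike numbers were not compared, so these values do not settle the pairing. The alternatives were other pseudocounts, filters and scalings, no trend, the replicate block, limma voom on the recovered reads with and without the block, replicates 2 and 3 alone, and each library left out. Both the model and the block model were run on simulated libraries with independent noise. As no replicate effect was simulated, that run cannot show whether the block is right for these data.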

Additional observations from a re-analysis of the deposited data

How the results depend on the processing

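The count of members past the adjusted threshold was 0 in the main model, 1 with the replicate block (*Polk*), 2 with limma voom on recovered reads and the replicate block (*Polk* and *Atr*), and 4 in replicates 2 and 3 alone, also with the block, a model chosen after seeing the data. It was 0 under the other settings run. Over all genes tested, the count was 8 in the main model, 14 with quantile normalization, 346 with the replicate block, 628 with voom and the block, and 1851 and 2280 in replicates 2 and 3 alone without and with the block. At an unadjusted *p* value under 0.05, the members counted 2 in the main model, 1 with quantile normalization, 4 with the block and with voom and the block, and 5 in replicates 2 and 3 alone with or without the block. All genes counted 1022 in the main model, 2263 with the block, 2575 with voom and the block, and 3569 and 3744 in replicates 2 and 3 alone without and with the block. When single libraries were left out, the members counted 0 adjusted and 1 to 3 unadjusted (1 when it was WT replicate 3 or CKO replicate 2 or 3), and all genes 1 to 23 adjusted and 513 to 2416 unadjusted, the highest of both without CKO replicate 1. The cause was not tested.

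The log2 fold change of *Chek1*, 0.0029, was -0.026 with quantile normalization and ran from -0.12 to 0.094 with 1 library left out. That of *Xpc*, -0.072, ran from -0.17 to 0.014 (without CKO replicate 2). The other 7 members kept their direction under every setting in which they were tested, and *Rrm2b* was not tested at a mean FPKM of at least 1. Beside *Polk*, the replicate block in limma changed the call of *Poli*, *Ercc8*, *Neil1* and *Tbx5* among the lists. In voom it changed the call of these, *Atr*, *Hnrnpk*, *Rad50*, *Polm*, *Lmx1b*, *Hba-a2* and *Hbb-bt*. All 7 ratios kept their direction with the replicate block, with a pseudocount of 0.1 and without each library in turn, though not their size. The 3 libraries per group and the spread of replicate 1 limit what adjusted *p* values can show.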

Other observations

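*Rmi1*, a gene of the complex that resolves recombination intermediates with BLM, lies next to *Hnrnpk* on the opposite strand of chromosome 13 (58402248 to 58411148 on GRCm38) and shares 330 exon bases with it. Its FPKM was 15.3, 11.9 and 11.2 in WT libraries 1 to 3, and 12.5, 12.5 and 11.7 in CKO libraries 1 to 3, so the groups overlapped. The log2 fold change was -0.053, with a 95% interval from -0.38 to 0.28 (limma adjusted *p* = 0.948).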
